A study of Mus musculus with 2 samples.

Results

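The 1895 autosomal regions described here gave the dimmest fragment signal in hypothalamic DNA of control-litter mice. They are the bottom 10% of 18959 autosomal regions, ranked by control signal, out of 19365 regions in all when the sex chromosomes are counted. A region is a run of at least 2 array probes whose starts lie at most 500 bp apart, and its control signal is the mean log2 processed intensity of the control channel over its probes and both arrays. The ranking itself used measured values of the control group. The control signals below are therefore a description, with no test.

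The arrays compared small litters (SL, 4 pups per litter, a model of overfeeding during suckling) with control litters (C, 9 pups). All mice were FVB/NJ females, and hypothalami were taken at postnatal day 180. DNA of 5 hypothalami made a pool, with 2 pools and 10 hypothalami per group, so values describe pools of whole hypothalami with all their cell types and not single animals. Each of 2 arrays received an SL and a C pool: on array 1 C carried Cy3 and SL Cy5, and on array 2 C carried Cy5 and SL Cy3. The sources used here do not say how pools were assigned to arrays. If the arrays shared their pools, the difference between arrays holds no biological spread.

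In mammals DNA methylation sits mostly on cytosines followed by guanine, and stretches rich in this pair, many of them at gene starts, are largely free of it in healthy tissue. The assay cuts CCCGGG sites first with SmaI, which is blocked by methylation, and then with XmaI, which also opens methylated sites and leaves ends that take up an adaptor. A fragment is amplified when the sites at both of its ends are methylated, and it stays dim when either of them is not. A fragment also stays dim where such sites are missing or where a probe binds poorly. The array files hold positions on the mouse build mm8 and no sequence, so CCCGGG sites, base composition and genes were not analysed here, and these states cannot be told apart from signal alone.

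The dimmest regions form the low tail of the control signal. Over all autosomal regions the distribution had a lower peak between 7.5 and 7.75 on the log2 scale, with 659 regions, and an upper peak between 13.25 and 13.50, with 673 regions. The dimmest regions lay below the lower peak, from 2.62 to 6.66 with a median of 5.63, against a median of 10.96 for the other autosomal regions. On the linear scale the median region of the dimmest set had a signal of 49.5, and the limit stood at 101. Of the 1895 regions 349 (18.4%) were below 4 on the log2 scale and 685 (36.1%) above 6.

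**Figure D1:**
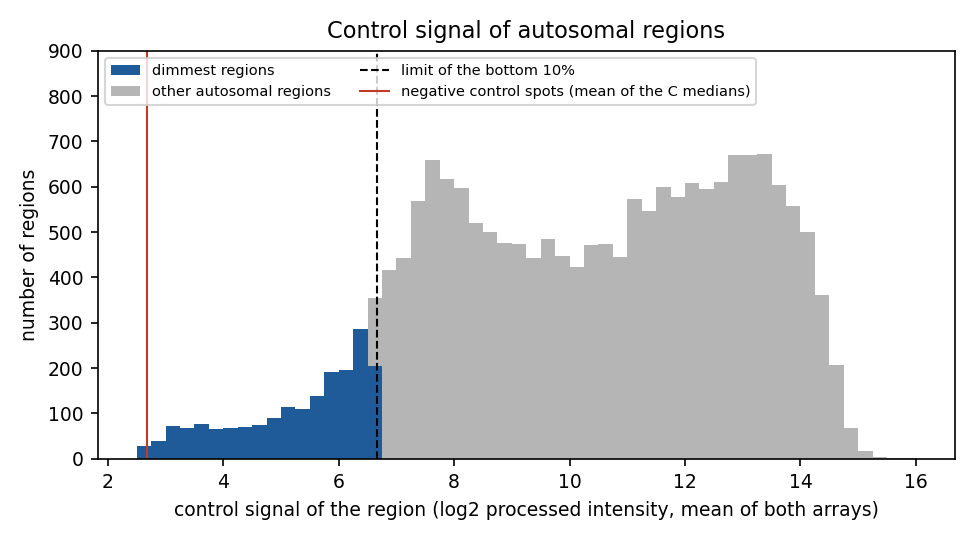
Number of autosomal regions (vertical axis) by control signal (horizontal axis, log2 processed intensity averaged over both arrays), with the dimmest regions in blue and the others in grey. The blue tail runs from 2.62 to the dashed limit at 6.66, below the lower of the peaks, and begins near the red line of the negative control spots.

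No gap in signal marks the limit. The last region inside, at chromosome 16, positions 12007133 to 12007339, had C signals of 169 on array 1 and 60.7 on array 2, and SL signals of 84.7 and 91.6. The first region outside, at chromosome 11, positions 60593166 to 60593905, had C signals of 200 and 51.4, and SL signals of 84.3 and 50.3. Next inside, at chromosome 1, positions 168845877 to 168846979, C gave 162 and 63.1 and SL 75.3 and 79.6. The regions on either side of the limit overlapped in every channel. The third from the limit inside was chromosome 4, positions 105385499 to 105385989, with C at 189 and 54.3 and SL at 33.0 and 47.8. The next regions outside were chromosome 7, positions 49075302 to 49076072, with C at 186 and 55.3, and chromosome 8, positions 91586940 to 91587212, with C at 133 and 77.0. All 6 had a control signal of 6.66 on the log2 scale.

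The low signal recurred on the array that a ranking had not used. When the bottom 10% was taken on array 1 alone, 1680 of 1895 regions (88.7%) were also in the bottom 10% of C on array 2, where the dye was exchanged. Their median C signal on array 2 was 5.02 on the log2 scale, against 10.61 for the remaining regions. Taken on array 2 alone, the median on array 1 was 6.22 against 11.29. Dye and, if the pools differed, pool thus changed while the low rank stayed. Both arrays carry the same probes, so a property of a probe is shared by these readings.

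SL pools, which the ranking did not use, were dim in the same places. By SL signal averaged over the arrays, 1753 of the 1895 regions (92.5%) were in the bottom 10%, and the other 142 were all within the lowest 20%. The brightest of the dimmest regions in SL reached only the 13.8th percentile of autosomal regions. In all 4 channels at once, 1522 regions (80.3%) were in the bottom 10%. Across the 1895 regions the signals of C and SL correlated with Pearson's r = 0.90 on array 1 and 0.94 on array 2. These are correlations across regions that share probes, spots and slide, and regions are not replicates.

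The channel medians of the dimmest regions were 74.1 for C and 49.9 for SL on array 1, and 32.0 for C and 38.3 for SL on array 2. The other autosomal regions had medians of 2502 and 2318 on array 1, and 1568 and 1515 on array 2. The dimmest regions were thus far below the rest in every channel, and array 1 read higher than array 2 in both groups. The 1196 negative control spots, which match no mouse sequence by design, had medians of 10.2 (C) and 7.11 (SL) on array 1 and 4.04 and 6.69 on array 2. Probes of the Y chromosome, which female pools lack, offered a second reference, though not a clean one. The brightest of them reached 3144 (C) and 2989 (SL) on array 1 and 2699 and 2380 on array 2. The medians of the Y probes were 35 and 18.1 on array 1 and 12.1 and 21.6 on array 2, and 23 of 33 (69.7%) lay at or below the limit. Of 395 X regions 44 (11.1%) lay at or below it.

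**Figure D2:**
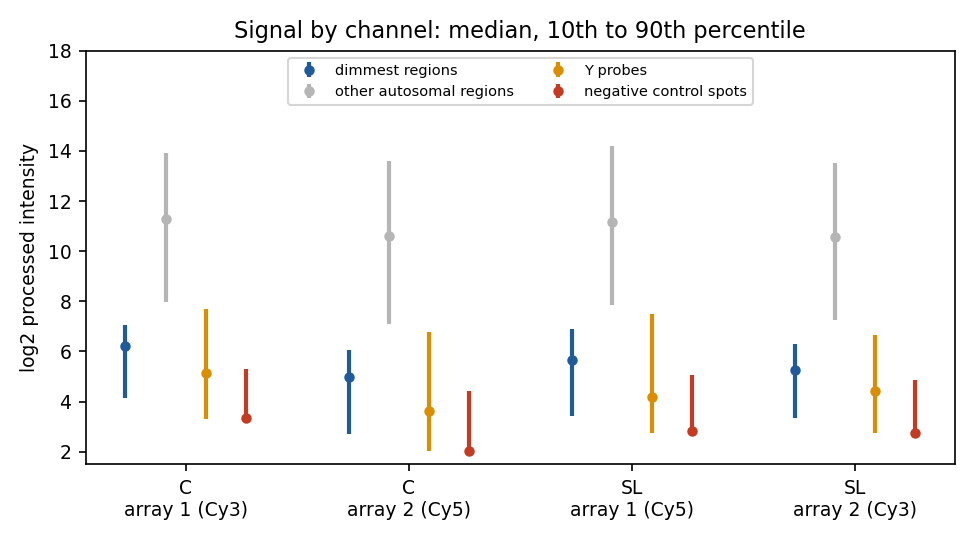
Signal (vertical axis, log2 processed intensity) in each of the 4 channels (horizontal axis); points are medians and bars run from the 10th to the 90th percentile over regions, probes or spots. The dimmest regions have medians of 6.21, 5.00, 5.64 and 5.26 from left to right, between the negative control spots and the other autosomal regions in every channel.

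A large share of the probes in the dimmest regions was still detected. A probe counts as well above background when the scanner software finds its signal clearly above the local background. Of the 6730 probes in the dimmest regions, 3999 (59.4%) met this in C on array 1 and 4156 (61.8%) did so on array 2. In SL the counts were 3978 (59.1%) and 3560 (52.9%). Among the other regions' probes the shares ran from 98.5% to 99.1%. The dimmest regions therefore held most of the autosomal probes near background, while over 50% of their own probes in each channel met the criterion. The negative control spots set a stricter mark, since some of them are bright. At or below their 95th percentile lay 96.5% of the dimmest regions in C and 97.5% in SL on array 1, and 99.6% and 98.8% on array 2, against 1.13% to 2.93% of the other regions.

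By this criterion the dimmest regions fell into 3 tiers. In 275 (14.5%) no probe was well above background in any channel, a state that 0 of the 17064 other regions shared. These dark regions had a median control signal of 9.64. In 301 (15.9%) all 4 channels had every probe above that mark, and their median was 86.0. The remaining 1319 were mixed, with a median of 48.6. Among the other autosomal regions 15972 (93.6%) were measured in full. The tiers follow the signal that chose the regions and are given as a description.

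The 10 dimmest regions of at least 4 probes read close to the negative control spots. The lowest, at chromosome 14, positions 72117560 to 72118689, had C signals of 9.97 on array 1 and 4.07 on array 2, and SL signals of 6.78 and 6.74. On chromosome 6, positions 79544465 to 79545174, the signals were 10.4 and 4.04 in C and 7.27 and 6.69 in SL. A second chromosome 6 region, positions 74927285 to 74927807, gave 10.9 and 4.04 in C and 7.38 and 6.69 in SL. In all of these the values lay near the medians of the negative control spots in the same channel. Chromosome 14 held 3 more of the 10, at positions 109287959 to 109288246, 82416301 to 82416496 and 111946646 to 111947522. The others were on chromosome 13 (77635728 to 77636453), chromosome 19 (14089828 to 14090804), chromosome 12 (43110156 to 43110880) and chromosome 9 (117648131 to 117648692). In each of the 10, 0 of 4 probes were well above background in any channel. The mean probe length was 60 bases in 9 of them and 58.8 bases in the chromosome 12 region.

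On array 2 the software assigned a fixed lowest value, 4.04 in C and 6.69 in SL. In the dimmest regions 768 probes (11.4%) stood at that value in C and 759 (11.3%) in SL, against 0.124% and 0.133% of the other regions' probes. Values at this floor have no order. In 23 regions every probe stood at the floor in both channels, and there log2(SL/C) was 0.76 in each after centring, the ratio of the 2 floors.

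Probe length, which the ranking did not use, differed between the dimmest regions and the rest. Probes on this array are 45 to 60 bases long. The median of a region's mean probe length was 57 bases among the dimmest regions and 51.7 bases among the others. Of 1513 regions built only of 60-base probes, 532 (35.2%) were among the dimmest, where 10% of all regions are. In the classes below, the share was 17.1% at over 57 to under 60 bases, 9.41% at over 54 to 57 and 6.87% at over 51 to 54. The lowest shares were 4.98% at over 48 to 51 and 5.13% at 45 to 48. The dimmest regions were thus concentrated among the longest probes, and the shortest class held 256 of them.

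The dependence on length held at a fixed number of probes. Among 4-probe regions, 189 of 540 with 60-base probes (35%) were among the dimmest, against 168 of 3227 (5.21%) with a mean length under 50. Over all regions, signal was low in both the longest and the shortest class. The median control signal was 8.12 on the log2 scale at 60 bases, 8.69 at 45 to 48 bases, and 11.64 at over 51 to 54 bases. Few regions of the shortest class reached the bottom 10%, although their median was near that of the longest. Among the dark regions 174 of 275 (63.3%) had only 60-base probes, against 39 of 301 (13.0%) of those measured in full. How far probe length sets the signal was not tested.

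Regions with few probes were more frequent among the dimmest. Of 1895, 513 (27.1%) had 2 probes, against 15.5% of the other regions. The share of regions that were among the dimmest was 16.3% at 2 probes, 14.5% at 3, 9.07% at 4, 5.54% at 5 to 6, 3.78% at 7 to 10 and 2.68% at over 10. Regions of 4 probes, the commonest size on the array, made up 42.6% of the dimmest. How far the number of probes sets a region's place in the ranking was not tested. The dimmest regions spanned a median of 510 bp.

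**Figure D3:**
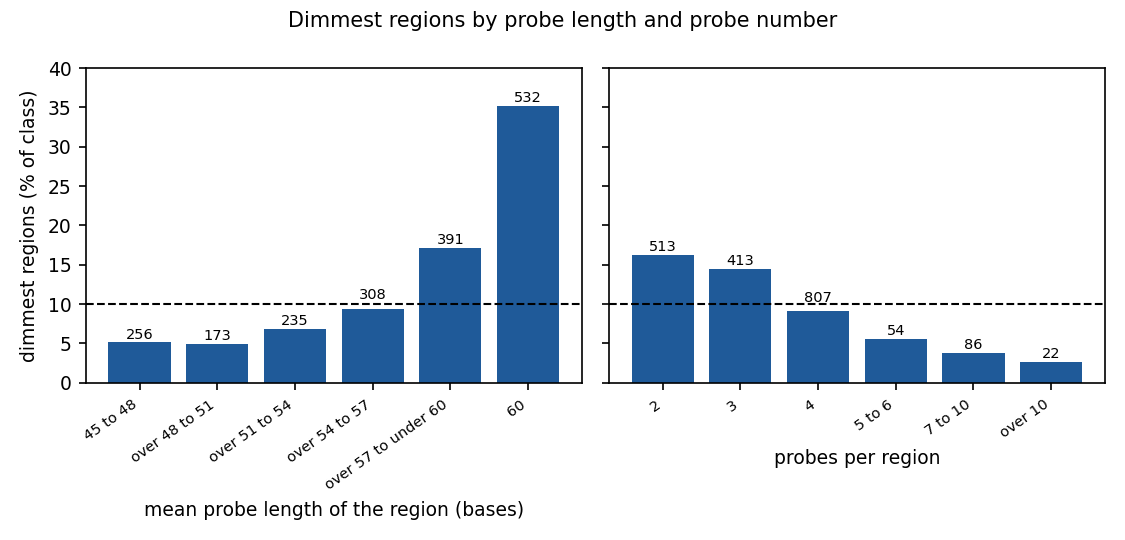
Share of regions among the dimmest (vertical axis, percent of the class) by mean probe length in bases (left) and by number of probes (right); numbers on the bars count the dimmest regions, and the dashed line is the 10% that the ranking takes. The share rises to 35.2% at 60 bases and falls from 16.3% at 2 probes to 2.68% at over 10.

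The largest of the dimmest regions were long and partly measurable. The region at chromosome 7, positions 37479462 to 37483319, had 16 probes, with C signals of 41.3 and 19 and SL signals of 35 and 25.2. In C, detection reached 6 of its probes on array 1 and 9 on array 2. Chromosome 1, positions 78077127 to 78081071, also held a region of 16 probes, with C at 123 and 58.2 and SL at 104 and 67.1. They spanned 3858 and 3945 bp, and in the second detection in C reached 12 and 13 of the 16 probes. On chromosome 14, positions 83252689 to 83256716, 15 probes averaged 88.7 and 50.2 in C and 91.1 and 57.1 in SL. On chromosome 13, positions 63572530 to 63575991, 14 probes averaged 137 and 61.6 in C and 91.8 and 67.8 in SL. The remaining large regions lay on chromosome 18 (83045294 to 83047564, 14 probes, C at 122 and 71.1) and chromosome 14 (57024883 to 57027427, 13 probes, C at 142 and 51.3).

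All 19 autosomes held some of the dimmest regions, in unequal shares. The highest shares were 16.4% on chromosome 3 (127 of 775 regions), 15.9% on chromosome 13 (112 of 705), 13.7% on chromosome 18 (76 of 555) and 13.5% on chromosome 1 (138 of 1026). The lowest were 7.17% on chromosome 11 (116 of 1618) and 7.21% on chromosome 7 (94 of 1303). Chromosome 11 had more regions on the array than any other autosome. Regions are not replicates of a chromosome, and 2 arrays allow no test of these shares.

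The dimmest regions were more often remote from other regions. Their median distance to the nearest region was 24393 bp, against 13196 bp for the others. Of the regions over 100 kb from their nearest neighbour, 452 of 2285 (19.8%) were among the dimmest. At 5 to 20 kb the share was 5.52%, and at under 1 kb it was 12.0%. The share was therefore lowest at intermediate distances and high at both ends.

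Dim regions also lay side by side. An adjoining region was among the dimmest for 630 of the 1895 (33.2%), against 16.8% of the other regions. Where the next region followed within 5 kb, it was among the dimmest for 117 of 349 dim regions (33.5%) and for 252 of 3198 others (7.88%). At 5 to 50 kb the shares were 11.7% and 5.97%, and at over 50 kb they were 17.3% and 12.4%. The difference was widest at the shortest distance and remained at over 50 kb. Within 5 kb of a dim region the next region had a median control signal of 7.79 on the log2 scale, against 10.89 next to another region. The 1895 regions formed 1265 single ones, 211 pairs, and 63 runs of 3 or more.

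The longest runs of neighbouring dim regions, 3 runs of 5 regions, reached over megabases with few probes in them. On chromosome 13, positions 115700821 to 118084331, 5 regions with 18 probes had control signals between 3.30 and 6.65 on the log2 scale. On chromosome 5, positions 58530378 to 63525762, 5 regions with 15 probes lay between 3.05 and 5.79. On chromosome 7, positions 19181513 to 23426528, 5 regions with 11 probes lay between 2.94 and 6.35. The chromosome 5 run was the darkest of these, with a median of 3.80, and its mean probe length was 59.7 bases. Of 13 runs of 4 regions, the one with the most probes was on chromosome 1, positions 96560286 to 97992321, where 23 probes lay in regions with control signals between 3.23 and 5.99. No other region of at least 2 probes lies inside a run, and the DNA between the regions was not analysed here.

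Within the dimmest regions probes often disagreed. Every probe was at or below the limit in 996 of the 1895 (52.6%), and 1389 of 6730 probes (20.6%) lay above it. At a fixed size of 4 probes, brightest and dimmest probe differed by over 8-fold in 235 of 807 dim regions (29.1%) and in 1020 of 8090 others (12.6%). The median spread was 2.05 on the log2 scale in the former and 1.01 in the latter. Only 26 of the dimmest regions (1.37%) held a probe brighter than the median probe of all autosomal regions.

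The widest spread marked regions with a step or a spike in signal. At chromosome 13, positions 114049325 to 114051791, lies a region of 8 probes. Its first 4 probes read 4.04 to 7.88 in C on array 2, at or near the floor, and the next 3 read 69.7, 69.2 and 79.6. The last probe reached 7631 in C on array 1 and 5885 on array 2, and 6666 and 5890 in SL. Signal thus rose in 2 steps along 2467 bp, in both groups and on both arrays. In the 12-probe region at chromosome 11, positions 20012442 to 20014761, the third and the sixth probe reached 3563 and 4431 in C on array 1. Probes 9 and 10 of that region read 10.0 and 9.55 in the same channel, and the SL channel read 7.05 and 6.45. The 11-probe region at chromosome 3, positions 144142042 to 144144159, had a single spike at its sixth probe, with 7493 and 6310 in C and 11478 in SL on array 1. The probe before the spike read 171 in C on array 1 and the probe after it 57.2. At chromosome 9, positions 91162618 to 91164515, the third of 11 probes reached 4872 and 2293 in C, between neighbours at 135 and 40.2 on array 1. These regions are low on average and hold fragments or probes that are not low.

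**Figure D4:**
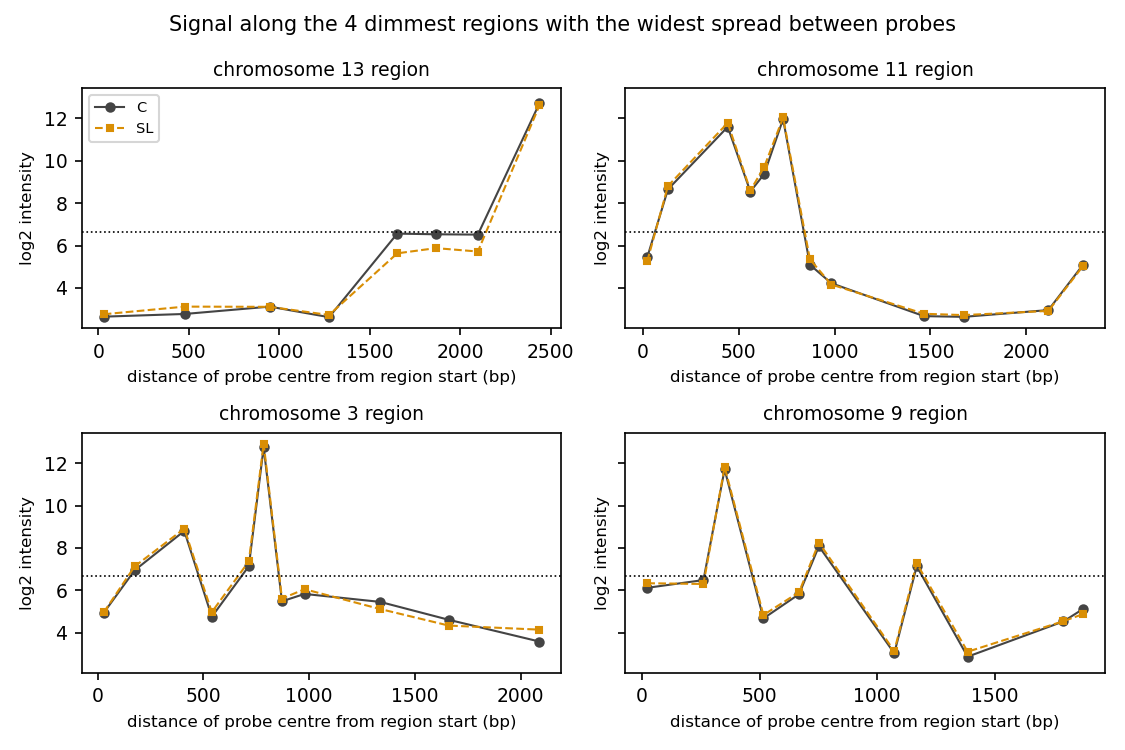
Signal (vertical axis, log2 processed intensity averaged over both arrays) against distance of the probe's centre from the region's start (horizontal axis, bp) in the 4 dimmest regions with the widest spread between probes; C is dark and SL is orange, and the dotted line is the limit. C and SL rise and fall at mostly the same probes, and the brightest probe of the chromosome 13 region stands at 12.71 in C and 12.61 in SL. Probes 5 to 7 of that region part more, at 6.56, 6.53 and 6.52 in C and 5.63, 5.88 and 5.72 in SL.

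The comparison of SL with C asks whether litter size changed the fragment signal in adulthood. Ratios were taken within each array as log2(SL/C), turned by the labelled dyes so that positive values mean more signal in SL, and centred on each array's median. Control signal chose the regions and is also the denominator, so the ratios in them are partly fixed by the choice and are a description. The median in the dimmest regions was -0.49 on array 1 and 0.40 on array 2, against 0.01 and -0.03 in the other regions. The arrays thus pointed in opposite directions, and the median of the 2-array mean was -0.01. Of the 1895 regions 1438 (75.9%) were lower in SL on array 1 and higher on array 2, against 27.7% of the others, and 392 (20.7%) had the same sign on both, against 39% of the others.

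The opposed directions were also present in sets chosen on the other array. Regions in the bottom 10% by C on array 1 read 0.37 on array 2 as the median log2(SL/C), against -0.03 for the rest. Regions chosen on array 2 had a median of -0.53 on array 1, against 0.01. In both cases the channel labelled with Cy3 was the higher one. Across the 1895 regions the ratios of the arrays correlated with r = -0.37, and across the others with r = -0.42. The direction goes with the labelled dyes, but the dyes were swapped between the arrays, so dye and array cannot be told apart.

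No difference between SL and C passed the test in the dimmest regions. limma's moderated test with Benjamini-Hochberg adjustment over 19365 regions called 0 regions (0%), and the smallest adjusted p of a dim region was 0.9996. At an unadjusted p under 0.05 limma counted 22 dim regions (1.16%) lower in SL, against 1.41% of all regions, and 3 (0.158%) higher, against 0.0207%. These p-values rest on limma's moderated variance, which pools the spread between the 2 arrays over all 19365 regions. That spread may be technical. The moderated SE was at least 0.329 in every dim region, also where its own 2 arrays lay closer together. An exact sign-flip test over 2 arrays cannot go below 0.5.

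Past 1.5-fold on both arrays, 8 dim regions (0.422%) were lower in SL, against 0.201% of all regions, and 2 (0.106%) were higher, against 0.0207%. On array 1 alone 760 (40.1%) were past 1.5-fold lower, against 14.9% of all, and 18 were higher, against 13.6% of all. On array 2 alone 19 were lower, against 0.449% of all, and 591 (31.2%) higher, against 5.62%. Few of the 760 lower on array 1 or the 591 higher on array 2 were past the fold the same way on the other array. From the other side, the 8 lower on both were among only 19 lower on array 2. The 2 higher on both were among only 18 higher on array 1. The count of 8 depended on the processing. It was 0 (0%, against 0.0568% of all) with normexp background correction and 26 (1.37%, against 0.341%) with loess. It was 13 (0.715%, against 0.205%) with a filter on dim probes and 4 (0.253%, against 0.136%) with at least 3 probes a region.

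**Figure D5:**
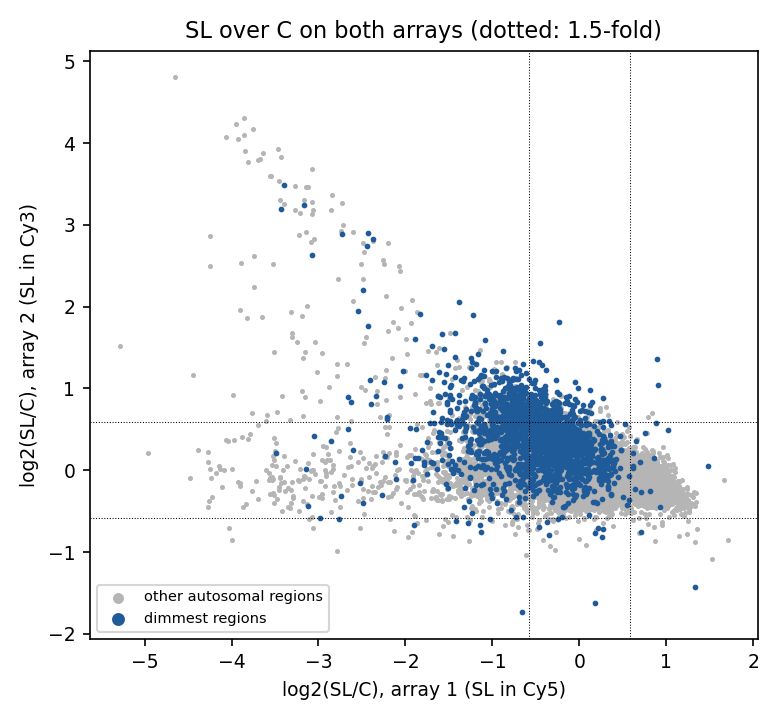
log2(SL/C) on array 2 (vertical axis, SL in Cy3) against array 1 (horizontal axis, SL in Cy5), centred per array, with the dimmest regions in blue, the other autosomal regions in grey and dotted lines at 1.5-fold. The blue points centre at -0.49 and 0.40, in the upper left where the arrays disagree in direction, and 8 lie past the fold in the lower left.

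Among the 8 regions lower in SL, the one at chromosome 19, positions 5302115 to 5302393, had both of its probes well above background in all 4 channels. Its C signals were 126.7 on array 1 and 76.1 on array 2, and its SL signals were 57.8 and 47.0. Both SL values were below both C values, and log2(SL/C) was -1.14 and -0.67 (mean -0.91, limma's moderated SE 0.34, n = 2 arrays). At chromosome 8, positions 66977772 to 66978146, C read 127 and 45.5 and SL 34.1 and 28.2, with ratios of -1.90 and -0.66. Both of these regions have 2 probes, and each probe was lower in SL on both arrays. In the chromosome 8 region the C channel detected 2 of 2 probes on each array, and the SL channel only 1 of 2. At chromosome 15, positions 96469874 to 96470597, C read 58.5 and 59.7 and SL 27.0 and 34.8. Of its 3 probes, the C channel detected 1 on array 1 and all on array 2, the SL channel 1 on each array, and 1 probe was higher in SL on array 2. At chromosome 6, positions 52105538 to 52106556, C read 33.1 and 81.2 and SL 21.2 and 24.0. There the C channel detected 1 of 4 probes on array 1 and all 4 on array 2, the SL channel 1 of 4 on each array, and 1 probe was higher in SL on array 2.

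The other 4 lower regions lost detection in SL on at least an array. At chromosome 17, positions 93505566 to 93506210, all 3 probes were well above background in C, at 84.2 and 44.3, and 0 of 3 in SL on either array, at 34.9 and 27.7. The ratios were -1.29 and -0.65, and with SL undetected on both arrays their size is uncertain. At chromosome 2, positions 13266536 to 13266914, C read 143 and 56.6 and SL 21.3 and 36.6, and the ratios of -2.76 and -0.60 were far apart. That region was also called in the comparison of dyes, with a limma adjusted p of 0.0149. At chromosome 11, positions 115656829 to 115656956, and chromosome 7, positions 131810814 to 131811035, no probe was well above background in SL on array 2. Their ratios were -1.42 and -0.62, and -1.03 and -0.60.

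Of the 2 regions higher in SL, the one at chromosome 13, positions 37521298 to 37521602, was measured in nearly all its probes. C read 74.7 on array 1 and 36.2 on array 2, and SL read 140 and 91.5. SL was above C on each array, both SL values were above both C values, and each of its 4 probes was higher in SL on both arrays. The mean log2(SL/C) was 1.13 (limma's moderated SE 0.34, n = 2 arrays) with a limma adjusted p of 0.9996. At chromosome 10, positions 67670982 to 67671246, neither array had a C probe well above background, at 27.4 and 11.3. SL read 51.6 on array 1, where 2 of 2 probes were detected, and 22.7 on array 2, where 0 of 2 were. With both groups undetected on array 2, no fold is given for that region.

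Within the dimmest set, the 6 regions with the most SL signal lay close to the limit in C. At chromosome 4, positions 137037631 to 137038550, SL read 187 and 99.9 against 133 and 76.5 in C. At chromosome 9, positions 104756704 to 104756953, SL read 131 and 135 against 187 and 54.5, lower on array 1 and higher on array 2. At chromosome 1, positions 94765237 to 94765500, SL read 153 and 114 against 145 and 70.3. The remaining 3 were on chromosome 1 (36389223 to 36389499), chromosome 2 (115766556 to 115767140) and chromosome 5 (128915609 to 128915723), with SL signals of 168 to 187 on array 1 and 89.7 to 92.0 on array 2. They were picked for high SL signal among regions capped in C, so the excess of SL in them follows from the choice. Over all the dimmest regions 213 (11.2%) were higher in SL on both arrays, against 17.5% of the others. A switch from undetected in C to detected in SL was seen in 0 regions, counted as no C probe but every SL probe well above background on both arrays. The opposite was seen in 1 (0.0528%). Such switches were not counted in the other regions.

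More of the dimmest regions were called in the contrast of dyes than in that of litter sizes, but the fits used different SEs. The same ratios, not turned for the swap, compare Cy5 with Cy3 whatever the group. Each array carried its own labelling, so this contrast is also the difference between the arrays. Dye cannot be told apart here from array, from pool if the pools differed, or from processing that differed between arrays. limma called 169 dim regions (8.92%) with Cy3 above Cy5, against 2.89% of all regions, and 1 (0.0528%) with Cy5 above Cy3, against 0.0361%. The SE was 0.30 for dyes in every region named here. For litter sizes it was at least 0.329 and differed between regions. At chromosome 4, positions 105385499 to 105385989, the mean log2(Cy5/Cy3) was called, while the mean log2(SL/C), larger in size, was not. The numbers of calls therefore do not compare the sizes of the differences. Past 1.5-fold on both arrays Cy3 was higher in 356 (18.8%), against 3.48% of all, and Cy5 in 2 (0.106%), against 0.0878%. Of the 356, 131 were dark regions, with no probe detected in any channel. Of the 169 calls 40 were dark, 121 mixed and 8 measured in full. The called regions read -1.43 on array 1 and 0.90 on array 2 as their median log2(SL/C). The excess of dye calls depended on the processing. In either direction limma called 170 dim regions (8.97%, against 2.93% of all). After loess it called 46 (2.43%, against 2.13%) and after normexp 49 (2.59%, against 2.28%), shares near those of all regions. With limma-trend it called 537 (28.3%, against 5.76%), and with the filter on dim probes 88 (4.84%, against 2.6%).

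In the 301 regions measured in full, the median log2(Cy5/Cy3) was -0.24, and Cy3 was higher past 1.5-fold on both arrays in 15 (4.98%). In the mixed regions the median was -0.42, with 210 of 1319 (15.9%) past the fold, though part of their probes was undetected. In the dark regions the median was -0.70, with 131 of 275 (47.6%) past the fold. The dark regions have no detected probe, so their ratios compare undetected signals and cannot be read as a measure of the DNA. As log2(SL/C), the lowest values alone gave -0.55 for array 1 and 0.73 for array 2 before centring, and the dark regions had medians of -0.67 and 0.76 after it. In the 1707 regions next above the limit, log2(SL/C) had medians of -0.09 and 0.24. Local background around the spots was nearly the same for dim and other regions, with medians of 19 and 19.3 for C and 40.1 and 40.9 for SL on array 1. On array 2 they were 41.1 and 42.0 for C and 20.5 and 20.9 for SL. In each array the Cy5 channel had the higher local background. Its part in the difference was not tested.

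The 6 regions with the largest excess of Cy3 were all built of 60-base probes. At chromosome 13, positions 20705475 to 20705952, the Cy3 channels read 359 (C, array 1) and 154 (SL, array 2), and the Cy5 channels 14.1 (C, array 2) and 34.4 (SL, array 1). Both Cy3 values were above both Cy5 values, and the ratios of -3.39 and 3.48 cancelled to 0.04. The mean log2(Cy5/Cy3) was -3.44 (n = 2 arrays). The limma adjusted p of 3.1e-27 rests on an SE of 0.30 that the fit shared over all regions and did not take from this region's own spread. Of its 4 probes, all were detected in Cy3, but in Cy5 only 1 (C, array 2) and 2 (SL, array 1), so the size of the difference rests partly on undetected probes. At chromosome 4, positions 35333698 to 35333980, Cy3 read 262 and 148 and Cy5 16.4 and 24.5. At chromosome 10, positions 104647097 to 104647484, Cy3 read 245 and 98.1 and Cy5 10.6 and 27.5, and in both regions 1 of 2 probes was detected in each Cy5 channel. The groups C and SL overlapped in all of these, and the dyes did not. The same order held at chromosome 1 (47774475 to 47774794 and 112953213 to 112953641) and chromosome 15 (6639374 to 6639582). In C on array 2, 1 of 4, 1 of 4 and 0 of 2 of their probes were detected in Cy5, and no size is given for them. The region called the other way, on chromosome 18, positions 24114715 to 24114930, read 35.1 and 19 in Cy5 and 13.8 and 6.96 in Cy3, and only 1 of its probes in 1 channel was well above background.

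Among regions of 60-base probes, 85 of 532 dim regions (16%) and 104 of 981 others (10.6%) were called with Cy3 above Cy5. Of the 169 calls 85 (50.3%) were in regions of 60-base probes, which made up 28.1% of the dimmest regions.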

How the data were processed

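DNA from pools of hypothalami was compared on 2 dye-swapped Agilent 2-colour arrays of 1 slide. SmaI and then XmaI cut 500 ng per pool, and 2 ug of amplified product was labelled, per the labels' protocols. The deposited intensities are background-subtracted and dye-normalized processed signals, per the file headers (Feature Extraction 10.5.1.1; the submitters' processing notes name 9.1.3.1). A multiplicative detrend was fitted on array 1 and not on array 2, per the file headers. The authors' deposited log10 ratio table differed from the scanner files' ratios by at most 0.00500 (log10), with column medians of 0 and -0.00128.

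Of 90535 genomic spots 44 with a feature outlier flag were left out, and 0 were saturated. Groups of a single probe (3693) were left out, leaving 85002 probes in autosomal regions. The precision is limited by the 2 arrays. Ratios, log2(SL/C) computed from the deposited intensities, were centred per array and tested by lmFit and eBayes of limma 3.58.1 (R 4.3.3) with Benjamini-Hochberg adjustment. The fit was also run on simulated ratios, drawn independently for each array. The real ratios correlated negatively between arrays, so that run does not gauge the calls made here. Regions carry no gene names here, so the gene lists of the design gave no values. Named regions were the 10 with the lowest control signal and at least 4 probes, the 6 with the most probes, and the 3 on each side of the limit. Also named were regions where both arrays passed 1.5-fold in 1 direction (at most 8 per direction), up to 6 dye calls per direction, and the 4 longest runs (ties by number of probes). The 6 with the highest SL signal and the 4 widest in spread with at least 4 probes complete the list. Members and lists were chosen with earlier results of these data known.

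Alternatives were a filter on dim probes, normexp background correction (offset 50, on median signals since the files hold no mean signals), loess, channel centring, the median over probes, gaps of 1000 bp, at least 3 probes, the bottom 5% and 20%, limma-trend, other folds, leaving out each array, and leaving out local-background flags.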

Additional observations from a re-analysis of the deposited data

How the results depend on the processing

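The median log2(SL/C) of the dimmest regions over both arrays was -0.01; array 1 alone gave -0.44 and array 2 alone 0.42, of opposite sign. Of 612 values of 49 named regions under alternatives, 597 moved by less than the spread between arrays, 15 moved by more, and 53 changed sign. Many of the 597 could hardly move. limma-trend keeps the ratios, the authors' table holds nearly the same ones, and leaving out an array shifts a value by part of that spread. The count is therefore no measure of robustness. Normexp moved 8 by more, loess 3, and the median over probes and gaps of 1000 bp 2 each. Leaving out dim probes kept 2 or more probes in 1126 of the 1895 regions, and of the 1817 regions then dimmest 980 (53.9%) overlapped the set described. With normexp 95.7% overlapped, and with the array left out in turn 94.2% and 94.4%.

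With the filter on dim probes the share also lowest in SL was 89.5%. Past 1.5-fold, 13 regions were lower (0.715%, against 0.205% of all) and 4 higher (0.22%, against 0.0216%). The share shared between arrays was 85.7%, with a dim neighbour 28.8%, with 2 probes 29.3%, and of C probes well above background 97.7%. limma called 88 regions for dye (4.84%, against 2.6%) and 1 for SL over C (1 of 18547 tested). The SL over C call, at chromosome 5, positions 115821516 to 115821757, was not among the 1895. With normexp there were 0 lower, 1 higher and 49 dye calls, with loess 26, 1 and 46. In each the 1 higher was 0.0528% of the dimmest, against 0.0103% of all with normexp and 0.00516% with loess. limma-trend called 193 of all 19365 regions for SL over C (0.997%), of which 1 (0.0528%) was among the dimmest and lower in SL, at chromosome 6, positions 33597711 to 33598678 (adjusted p 0.0430, ratios -2.98 and -0.58), and 537 dye calls, against 170 without the trend. For all of these the cause was not tested.

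With gaps of 1000 bp there were 5 lower (0.3%, against 0.106% of all) and 1 higher (0.0601%, against 0.00587%). The shares were 29.5% with a dim neighbour, 5.17% with 2 probes and 63.0% of C probes. With at least 3 probes there were 4 lower (0.253%, against 0.136%), and these shares were 27.2%, 0% and 65.7%. The bottom 5% (947 regions) held 0 lower, 1 higher and 104 dye calls, with shares of 24.1%, 29.6% and 32.0%. The bottom 20% (3791 regions) held 15 lower and 4 higher, with shares of 47.3%, 19.9% and 81.0%, and 92.3% shared between arrays. For both, 0.201% of all regions were lower, 0.0207% higher and 2.93% called for dye. Leaving out local-background flags, an alternative chosen after seeing the data, gave 29.5% with 2 probes. At the lower fold limit tried 26 were lower and 14 higher, and at 2-fold 0 and 0. The shares of all regions at these folds were not counted, so these counts have no comparison. Without an array in turn, 86.3% to 91.8% were also lowest in SL. Past 1.5-fold, 17 to 705 were lower, against 0.449% and 14.9% of all, and 22 to 626 higher, against 13.6% and 5.62%. SL and C were paired within each array throughout, so no further block could be fitted. Signal near background limits the ratios of the dark regions.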
